A study of Mus musculus with 6 samples.

Results

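The genes described here encode 6 mouse proteins outside the YTH family that are known as readers of N6-methyladenosine (m6A) in messenger RNA, by binding it or by binding sites that it exposes: Igf2bp1, Igf2bp2 and Igf2bp3, the nuclear ribonucleoproteins Hnrnpa2b1 and Hnrnpc, and Fmr1. They were chosen by name, as reader proteins outside the YTH family, and not by a rule on their values. Earlier results of these data were known at that choice. The readers are 6 of the 27179 genes in the count table. The values measure the RNA of the readers in each fraction, not the proteins and not what the proteins bound. The fractions came from bone marrow stromal cells of C57BL/6 mice at postnatal day 2. The mice carried 1 copy of a DsRed reporter at Cxcl12 (genotype Cxcl12-dsred/+), and the cells were sorted as DsRed-positive and negative for CD45, Ter119 and CD31. All groups shared the strain, the age, the reporter allele and the sort. They were poly(A) RNA pulled down with an antibody to m6A (anti-m6A, 2 libraries), poly(A) RNA pulled down with non-specific IgG (2 libraries) and poly(A) RNA set aside before the pull-down (Input, 2 libraries). Nothing in the labels says that the 2 libraries of a group came from separate mice or separate pull-downs, so each p-value measures the spread between libraries, which may be technical.

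m6A is the most common internal modification of messenger RNA, and reader proteins carry out its effects. IGF2BP1, IGF2BP2 and IGF2BP3 bind RNA through KH domains and keep their target messages stable; IGF2BP1 and IGF2BP3 in particular are abundant in the embryo and in many tumours and scarce in most adult tissues. hnRNPA2B1 acts in the nucleus on splicing and on the processing of primary microRNAs, and hnRNPC binds uridine tracts that m6A makes accessible by loosening the RNA structure around them. FMRP, the product of Fmr1, represses translation, and its loss causes fragile X syndrome.

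Most m6A in mammalian messages lies within a short consensus whose commonest form is GGACT in DNA letters, and much of it lies in long last exons and near stop codons. The letters were searched on the transcript strand alone in 1 transcript per gene, the longest protein-coding one in the GENCODE M21 annotation of GRCm38. Other matches in a transcript are not printed. For the 5 readers whose transcript holds GGACT, the match nearest to the end of the coding sequence is printed below. It runs 5′ to 3′, with 8 bases on each side and the match in capitals, to show 1 place where these letters lie in each reader message.
Igf2bp1: tggtggtcGGACTacaaccca
Igf2bp2: tttcgactGGACTgtctgtgc
Igf2bp3: gaaacatcGGACTtccctttg
Hnrnpc: cgtgagtgGGACTgttacaac
Fmr1: cctgaattGGACTatataact
A match is a description of the letters and not a methylated site, since the table holds counts per gene and no positions of m6A.

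The Igf2bp1 window lay in the 3′ UTR, 1210 bases after the last coding base, at chr11:95962281-95962301 on the minus strand. The Igf2bp2 window lay in the coding sequence, 668 bases before its end, at chr16:22076076-22076096 on the minus strand. The Igf2bp3 window lay in the 3′ UTR, 1397 bases after the last coding base, at chr6:49085936-49085956 on the minus strand. Of these, only the Igf2bp2 window lies in coding sequence. The Hnrnpc window lay in the 3′ UTR, 442 bases after the last coding base, at chr14:52074629-52074649 on the minus strand. The Fmr1 window lay in the 3′ UTR, 313 bases after the last coding base, at chrX:68715977-68715997 on the plus strand. The Hnrnpa2b1 transcript, the shortest of the 6, held no GGACT, which says only that these letters are not in it.

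The readers did not share a high density of the consensus. Of 10324 tested genes with a transcript, 92.3% held at least 1 GGACT, and the median density was 1.05 per kb. Igf2bp1, with a 6340-base 3′ UTR in a transcript of 8378 bases, held 10 matches, all in the 3′ UTR, or 1.19 per kb. Igf2bp2 held 5 matches in 3899 bases, or 1.28 per kb. These are near the median, at percentile 59 for Igf2bp1 and 63.8 for Igf2bp2. Igf2bp3 held 2 matches in 4345 bases (0.46 per kb), Fmr1 held 2 in 4409 (0.454 per kb) and Hnrnpc held 2 in 2847 (0.702 per kb). Fmr1 and Igf2bp3 therefore have nearly the same density, at percentiles 15 and 15.4, and both have longer 3′ UTRs (2291 bases in Fmr1 and 2122 bases in Igf2bp3) than the median tested gene (1080 bases).

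Library totals were 6102070 and 5133237 counts in anti-m6A, 2487148 and 1278735 in IgG, and 7125578 and 9493391 in Input. Genes with a count numbered 12714 and 12391 with the m6A antibody, 3266 and 2723 with IgG, and 10024 and 11186 in Input. Of 11281 genes tested, 8280 (73.4%) were at 0 in both IgG libraries. Squared differences between the 2 libraries of a group were compared with random sampling over genes with enough counts. They averaged 9.93 times that expectation in anti-m6A, 21.9 times in IgG and 119 times in Input. The measure grows with the counts of a gene, so groups of unlike depth are not directly comparable in it. All 8 stromal markers listed for the sorted cells had counts in the anti-m6A and Input groups, and 5 of 8 in the IgG group. Ptprc, which encodes CD45, was at 0 in all 6 libraries, Cdh5 was at 0 in Input, and Pecam1, which encodes CD31, had 92 and 69 counts in Input. The haemoglobin genes Hba-a1 and Hbb-bs, red cell markers, held most counts of the list of 6 genes of sorted-out cells. In IgG against Input, Hba-a1 (log2 change 2.26 ± 0.19, adjusted p = 0.000609) and Hbb-bs (2.88 ± 0.47, adjusted p = 0.00314, edgeR) were higher, while Pecam1, at 0 in IgG, was at least 5.66-fold lower (adjusted p = 0.00569, edgeR). The summed counts of the list per 1e+06 counts of the unadjusted library total were 590.8 and 669.9 with the m6A antibody, 2445 and 2764 with IgG, and 361.2 and 498 in Input; their part in the reader values was not tested. CPM below is the count per 1e+06 counts of the library, with the library size adjusted by trimmed means (TMM). A count of 0 allows up to 3 counts, or 1.16 and 1.94 CPM in the IgG libraries and 0.355 and 0.291 CPM in the Input libraries, and these limits cover counting error only. In bulk RNA, fewer cells of a type and less RNA per cell cannot be told apart.

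**Figure D1:**
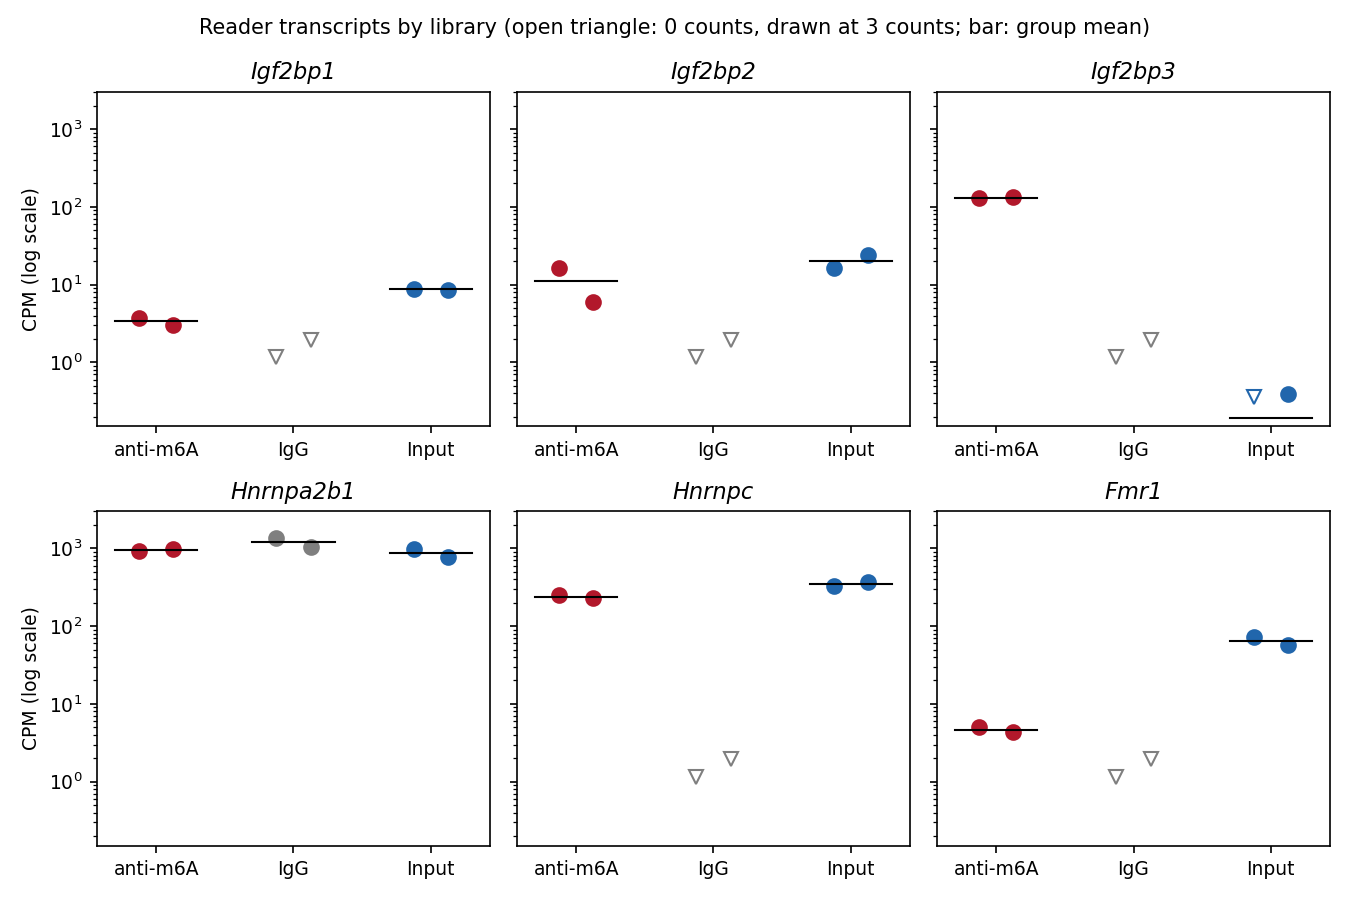
Level of the 6 reader genes in each library, in TMM-adjusted CPM on a log axis, with anti-m6A, IgG and Input from left to right; each point is a library, each bar a group mean, and an open triangle a library at 0 counts drawn at the level of 3 counts. In the IgG libraries 5 of the 6 genes are at 0, Hnrnpa2b1 is high in all 6 libraries, Igf2bp3 is high in the anti-m6A libraries alone, and Fmr1 is lower in anti-m6A than in Input.

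Of the readers, Igf2bp3 was higher and Fmr1 was lower in the anti-m6A libraries than in Input, and all but Hnrnpa2b1 were higher than in IgG. In anti-m6A against Input, 1 of the 6 was higher, where 28% of the 11281 genes tested were called higher (an adjusted p under 0.05), and 1 was lower, where 20.5% were called lower. The median log2 change of the 6 was -0.688, beside 0.184 over all genes. That median and the split of 3156 genes higher and 2308 lower depend on the scaling: DESeq2 size factors moved the median by -0.403 and gave 2711 higher and 2982 lower, and library totals moved it by -0.505 and gave 2609 higher and 3127 lower. In anti-m6A against IgG, 5 of the 6 were higher, where 73.1% of all genes were, and 0 were lower, where 8.31% were (edgeR; 0 at an unadjusted p under 0.05 and 0 with DESeq2). The 5 readers at 0 in both IgG libraries could not be lower in anti-m6A than in IgG. The 0 lower therefore concerns Hnrnpa2b1 alone, which was called lower with library totals. The reader shares do not set them apart from all genes in these comparisons. The background against Input rests on both anti-m6A libraries: without replicate 1, 370 genes were higher and 72 lower of 11720 tested, and without replicate 2, 408 were higher and 93 lower of 11981, and Fmr1 was called in neither. Counting each gene at 0 at its floor, the median log2 change against IgG was 2.215 for the readers and 2.879 over all genes. The 3 comparisons share libraries, so their calls are not independent.

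Among the IGF2BP genes, Igf2bp3 was higher in the anti-m6A libraries than in Input, while Igf2bp1 and Igf2bp2 had lower means there without passing the test. Igf2bp3 (Entrez gene 140488, chromosome 6, 49085218 to 49215469, minus strand) is the family member best known as an oncofetal protein that is silent in most adult tissues. It was counted 630 and 527 times with the m6A antibody, 0 and 0 times with IgG, and 0 and 4 times in Input. The levels were 130.7 and 132.9 CPM with the m6A antibody, 0 and 0 CPM with IgG, and 0 and 0.388 CPM in Input. Both anti-m6A libraries were thus high and almost equal, all other libraries were at or near 0, and the groups did not overlap. Of the 11281 genes tested, 1387 (12.3%) were at 0 in both Input libraries and 8280 (73.4%) in both IgG libraries. By log2 change against Input, Igf2bp3 ranked 520 from the top of the genes tested. The fitted log2 change against Input was 9.16 ± 1.08 (SE; adjusted p = 0.00716, edgeR's quasi-likelihood test with Benjamini-Hochberg adjustment, n = 2 per group). Since the Input value rests on 4 counts in all, the fitted size is imprecise and depends on the prior count of the fit: the ratio of summed counts, scaled to library size, was 617, with a 95% counting interval of 240 to 2270. Against IgG it was at least 84.9-fold higher (adjusted p = 0.00283, edgeR). It passed the filter on low counts through the anti-m6A libraries alone. A large difference from Input and from IgG was thus a condition of its being tested, and neither call is support beyond the counts themselves.

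Part of the Igf2bp3 transcript overlaps Malsu1, a gene on the opposite strand that encodes a mitochondrial ribosome assembly factor. The exons of both overlap over 1529 bases, chr6:49085223-49086751, which is 35.2% of the Igf2bp3 transcript and 72.1% of its 3′ UTR, and the GGACT window printed above lies inside it. The Smart-seq2 libraries do not mark strand, so reads of Igf2bp3 and Malsu1 cannot be told apart there. Whether reads in the overlap were dropped, given to 1 gene or counted for both is not given in the sources used here, and the counts and shares of both genes depend on it. Malsu1 was counted 4212 and 3944 times with the m6A antibody, 0 and 0 times with IgG, and 511 and 1633 times in Input. Its log2 change against Input was 3.09 ± 0.55 (SE; adjusted p = 0.0145, edgeR), so it moved in the same direction as Igf2bp3. Of the counts of both genes together, Igf2bp3 held 13% and 11.8% in the anti-m6A libraries (exact 95% binomial intervals 12.1% to 14% and 10.9% to 12.8%). In the Input libraries it held 0% and 0.244% (0% to 0.719% and 0.0666% to 0.624%). The share of Igf2bp3 was thus higher in both anti-m6A libraries than in both Input libraries. These intervals cover counting error only and not the spread between libraries. Over genes with enough counts, that spread, as a mean squared difference, was 9.93 times random sampling in anti-m6A and 119 times in Input. Of the other readers, Igf2bp1 and Fmr1 each overlapped small noncoding genes over short stretches, and Igf2bp2 overlapped none. Malsu1 and this overlap were singled out after the values were seen, and the part of Malsu1 reads in the Igf2bp3 value was not tested.

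**Figure D2:**
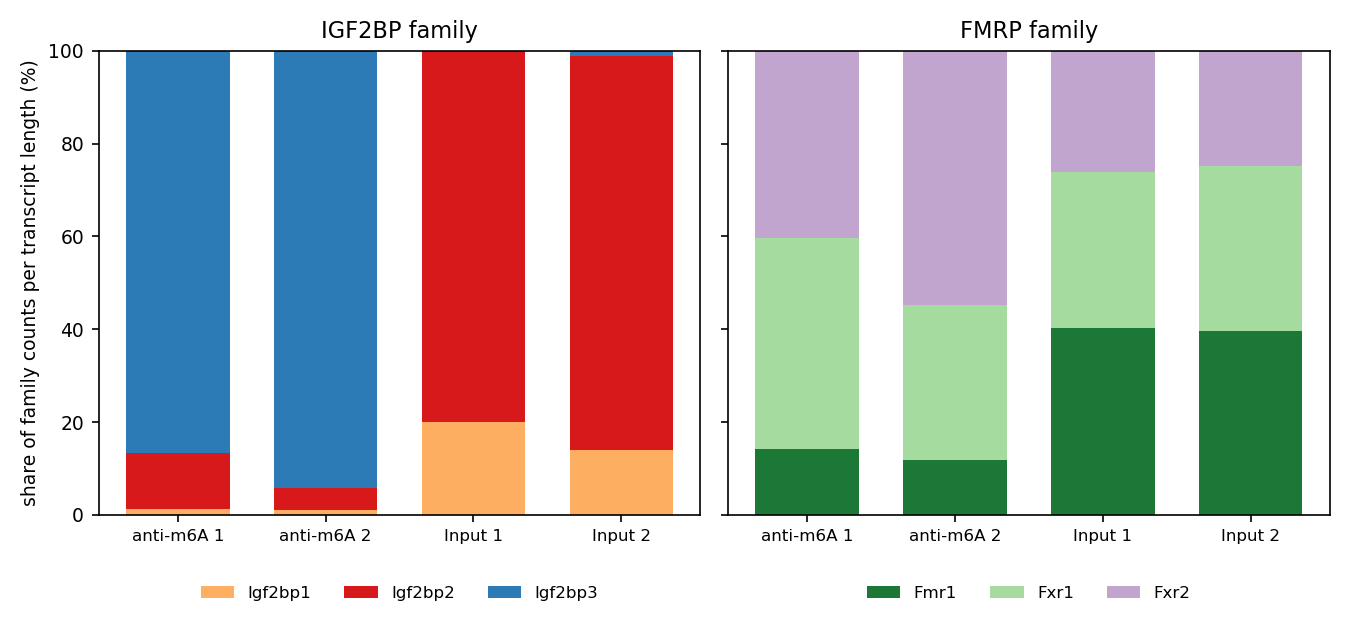
Share of each gene in the summed counts per transcript length of its family, in percent, as stacked bars for the 2 anti-m6A and 2 Input libraries; the IgG libraries had 0 counts of these genes. Igf2bp3 makes up 86.6% and 94.1% of the IGF2BP sum in anti-m6A and 0% and 1.21% in Input, and Fmr1 makes up 14.1% and 11.8% of the FMRP family sum in anti-m6A and 40.3% and 39.6% in Input.

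Igf2bp1 (Entrez gene 140486, chromosome 11, 95957163 to 96005944, minus strand), known for binding Myc and beta-actin messages, was a low-level gene. It was counted 18 and 12 times with the m6A antibody, 0 and 0 times with IgG, and 74 and 89 times in Input. The levels were 3.73 and 3.03 CPM with the m6A antibody, 0 and 0 CPM with IgG, and 8.76 and 8.63 CPM in Input. The anti-m6A libraries were both below the Input libraries, by 1.36 ± 0.41 on the log2 scale (SE), and the difference did not pass the test (adjusted p = 0.0564, edgeR). Its call against Input depended on the scaling: with DESeq2 size factors the log2 change was -1.80 (adjusted p = 0.032) and with library totals -1.90 (adjusted p = 0.0275), within a range of 0.0101 to 0.717 over all alternatives. Against IgG, Igf2bp1 was at least 2.18-fold higher (adjusted p = 0.00274, edgeR), but without anti-m6A replicate 1 the adjusted p was 0.0547, the highest of the range from 0.0013 to 0.0547 over its alternatives.

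Igf2bp2 (Entrez gene 319765, chromosome 16, 22059009 to 22163299, minus strand) is the member that stays expressed in adult tissues and is known in metabolism and muscle. It was counted 79 and 24 times with the m6A antibody, 0 and 0 times with IgG, and 137 and 251 times in Input. The levels were 16.4 and 6.05 CPM with the m6A antibody, 0 and 0 CPM with IgG, and 16.2 and 24.4 CPM in Input. The first anti-m6A library was at the level of the first Input library, so these groups overlapped. The log2 change against Input was -0.85 ± 0.67 (SE; adjusted p = 0.356, edgeR), which did not pass the test. Against IgG, Igf2bp2 was at least 7.23-fold higher (adjusted p = 0.00457, edgeR).

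The share of Igf2bp3 in the IGF2BP family differed between the fractions. Per kb of transcript, Igf2bp3 was 86.6% and 94.1% of the IGF2BP sum in the anti-m6A libraries, and 0% and 1.21% in the Input libraries. Igf2bp2 was 12.1% and 4.78% in the anti-m6A libraries, and 79.9% and 84.8% in the Input libraries. Igf2bp1 was 1.28% and 1.11% in the anti-m6A libraries, and 20.1% and 14% in the Input libraries. The shares add up to 100%, so those of Igf2bp1 and Igf2bp2 had to be lower where that of Igf2bp3 was higher and are not separate observations. With 2 libraries a side the smallest two-sided exact permutation p is 0.333. These shares rest on the Igf2bp3 count, whose reads cannot be told apart from those of Malsu1 where the genes overlap.

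Of the hnRNP readers, neither passed the test against Input, and they differed in IgG, where Hnrnpa2b1 was present and Hnrnpc was at 0. Hnrnpa2b1 (Entrez gene 53379, chromosome 6, 51460434 to 51470048, minus strand) had the highest level per kb of the 6 genes in every library. It was counted 4459 and 3860 times with the m6A antibody, 3552 and 1602 times with IgG, and 8182 and 7954 times in Input. The levels were 924.8 and 973.1 CPM with the m6A antibody, 1373 and 1038 CPM with IgG, and 968.3 and 771.6 CPM in Input. The IgG libraries were above all others, and the anti-m6A and Input libraries overlapped. The log2 change was -0.35 ± 0.21 against IgG (SE; adjusted p = 0.181) and 0.13 ± 0.21 against Input (SE; adjusted p = 0.661, edgeR), and neither passed the test. The direction against Input turned to a log2 change of -0.323 with DESeq2 size factors and -0.426 with library totals. With library totals Hnrnpa2b1 was called lower in anti-m6A than in IgG, with a log2 change of -0.853 (adjusted p = 0.00897, the lowest of its alternatives, which reached 0.994).

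Hnrnpc (Entrez gene 15381, chromosome 14, 52073377 to 52104039, minus strand) was counted 1201 and 916 times with the m6A antibody, 0 and 0 times with IgG, and 2753 and 3767 times in Input. Its level averaged 240.0 ± 12.9 CPM in anti-m6A and 345.6 ± 28.0 CPM in Input (SD, n = 2 each). Both anti-m6A libraries were below both Input libraries and far above the IgG libraries. It was at least 155-fold higher in anti-m6A than in IgG (adjusted p = 0.000548, edgeR), the largest bound among the readers. Against Input it was lower by 0.53 ± 0.22 on the log2 scale (SE; adjusted p = 0.121, edgeR), which did not pass the test. That call depended on the scaling too: with DESeq2 size factors the log2 change was -0.965 (adjusted p = 0.0208) and with library totals -1.07 (adjusted p = 0.0169), within a range of 9.73e-12 to 0.594 over all alternatives. A pseudogene, Gm12696, shares 317 of the 2798 stretches of 50 bases in the Hnrnpc transcript, and its counts were 20.7% and 19.7% of the Hnrnpc counts in anti-m6A and 18.9% and 17.5% in Input. Summing both genes, an alternative chosen after the values were seen, gave a log2 change of -0.501 against Input (adjusted p = 0.124).

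**Figure D3:**
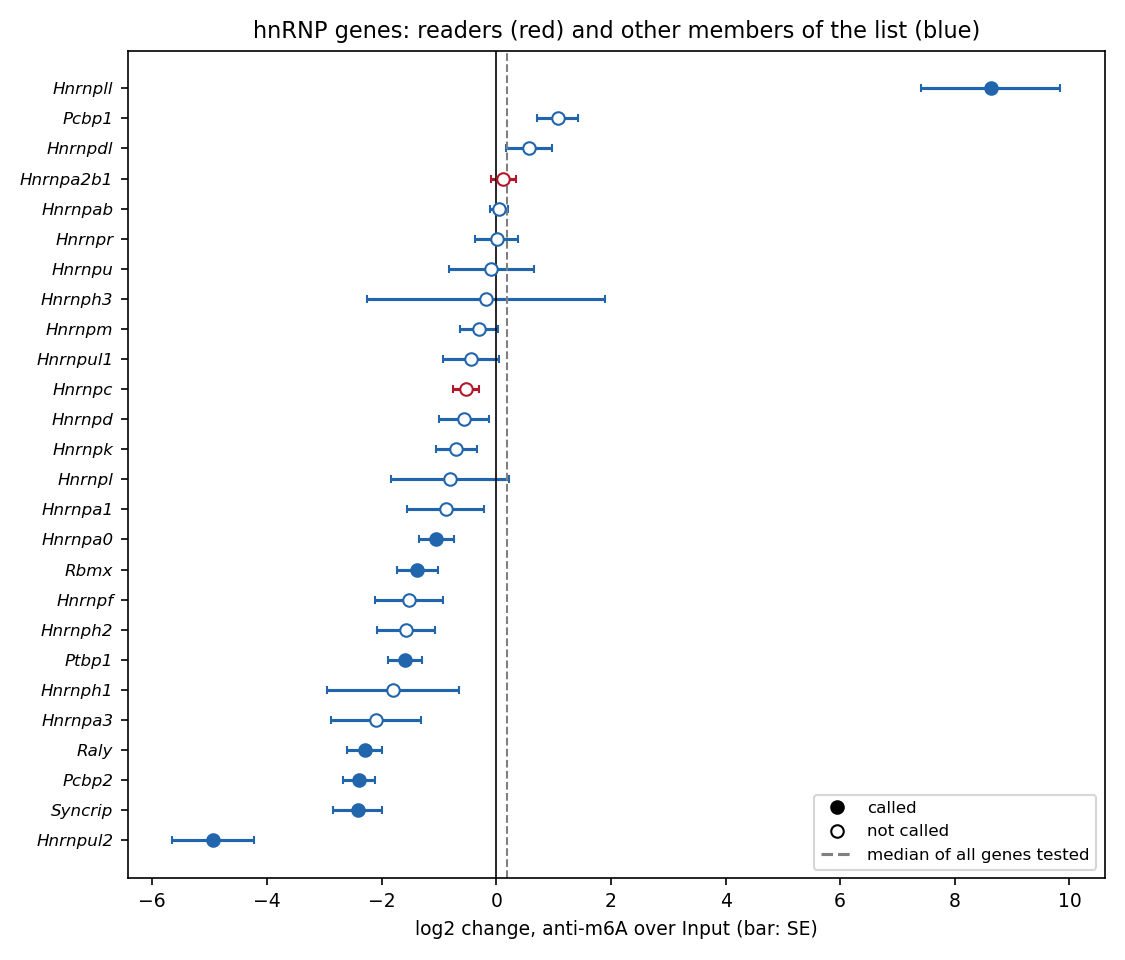
Log2 change in anti-m6A against Input for Hnrnpa2b1 and Hnrnpc (red) and the other 24 hnRNP genes tested (blue), in order of change, with bars of 1 SE and a dashed line at the median of all genes tested. Filled points passed the test: Hnrnpll is the 1 gene higher, 7 of the other hnRNP genes are lower, and the points of both readers are open.

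The other 24 hnRNP genes showed where these readers stand. In anti-m6A against Input, 1 passed the test as higher, 7 passed as lower and 16 did not pass, where 28% of all genes were higher and 20.5% lower. Their median log2 change was -0.843, beside 0.184 over all genes tested. Hnrnpll, a splicing regulator known in lymphocytes, was counted 248 and 216 times with the m6A antibody, 0 and 0 times with IgG, and 2 and 0 times in Input. It was called higher than Input (adjusted p = 0.0085, edgeR), with a ratio of summed counts, scaled to library size, of 495 (95% counting interval 136 to 4100); like Igf2bp3 it passed the filter on low counts through the anti-m6A libraries alone. Its counts thus had the same arrangement as those of Igf2bp3, with Input at or near 0. The largest changes downward were in Hnrnpul2 (-4.94 ± 0.71, adjusted p = 0.00888), Syncrip (-2.42 ± 0.43, adjusted p = 0.0144) and Pcbp2 (-2.39 ± 0.28, adjusted p = 0.00716, edgeR). Against IgG, 18 of the 24 were higher, 1 was lower and 5 did not pass, where 73.1% of all genes were higher and 8.31% lower. The largest bounds were those of Pcbp1 (at least 112-fold, adjusted p = 0.000682), Hnrnpm (at least 89.4-fold, adjusted p = 0.000647), Hnrnpdl (at least 86.8-fold, adjusted p = 0.000832) and Hnrnpr (at least 41.6-fold, adjusted p = 0.00088, edgeR), all below that of Hnrnpc. The one lower was Hnrnpab, with 264.4 and 220.6 CPM with the m6A antibody, 2063 and 2108 CPM with IgG, and 237.2 and 231.8 CPM in Input; it was singled out after its values were seen. Hnrnpa2b1 and Hnrnpab were therefore both well above 0 in IgG, where most genes were at 0. They were not alone in this: Hnrnpa0 had 110 and 45 counts and Hnrnpa1 125 and 41 counts with IgG, while 18 of the 24 were at 0.

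Fmr1 was lower in the anti-m6A libraries than in Input, the one reader called in that direction. The gene (Entrez gene 14265, chromosome X, 68678536 to 68717963, plus strand) was counted 24 and 17 times with the m6A antibody, 0 and 0 times with IgG, and 621 and 588 times in Input. The level averaged 4.63 ± 0.49 CPM in anti-m6A and 65.3 ± 11.6 CPM in Input (SD, n = 2 each). Both anti-m6A libraries were low but had counts, both Input libraries were far higher, and the groups did not overlap. The log2 change against Input was -3.81 ± 0.43 (SE; adjusted p = 0.00716, edgeR), a 14.1-fold lower mean CPM. The ratio of summed counts, scaled to library size, was 0.0724, with a 95% counting interval of 0.0517 to 0.0988. Fmr1 ranked 825 from the bottom of the 11281 genes tested. Leaving out either anti-m6A library left the change at -3.91 (without replicate 1; adjusted p = 0.0954) or -3.76 (without replicate 2; adjusted p = 0.102) but ended the call; its adjusted p ranged from 1.01e-19 to 0.102 over all alternatives. Against IgG, Fmr1 was at least 2.98-fold higher (adjusted p = 0.0023, edgeR).

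The relatives and partners of FMRP were mostly not called against Input. Of 6 tested, 1 was lower and 5 did not pass, where 20.5% of all genes were lower and 28% higher. Their median log2 change was -1.151, beside 0.184 over all genes tested. Fxr1, the paralogue known in muscle, had 11.0 and 8.32 CPM with the m6A antibody, 0 and 0 CPM with IgG, and 41.8 and 34.9 CPM in Input, and was lower than Input by a log2 change of -1.99 ± 0.45 (SE; adjusted p = 0.0259, edgeR). Fxr2 had 9.54 and 13.4 CPM with the m6A antibody, 0 and 0 CPM with IgG, and 31.8 and 24.0 CPM in Input, with a log2 change of -1.28 ± 0.47 (SE; adjusted p = 0.0878, edgeR). Fmr1, Fxr1 and Fxr2 were lower in both anti-m6A libraries than in both Input libraries, Fmr1 by the most, but Fxr2 did not pass the test. The share of all genes with this arrangement was not counted, and 20.5% of all genes were called lower. Per kb of transcript, Fmr1 was 14.1% and 11.8% of the family sum in anti-m6A and 40.3% and 39.6% in Input. Against IgG, 4 of the 6 were higher, 1 was lower and 1 did not pass, where 73.1% of all genes were higher and 8.31% lower. The largest were Nufip1, a nuclear partner of FMRP (at least 15.4-fold, adjusted p = 0.00153), Fxr2 (at least 7.38-fold, adjusted p = 0.00185), Fxr1 (at least 6.22-fold, adjusted p = 0.00175) and Caprin1, a stress granule protein (log2 change 2.28 ± 0.57, adjusted p = 0.0138, edgeR). The one lower was Cyfip1, which links FMRP to cap-bound translation factors (log2 change -0.92 ± 0.29, adjusted p = 0.0319, edgeR); it was singled out after its value was seen.

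**Figure D4:**
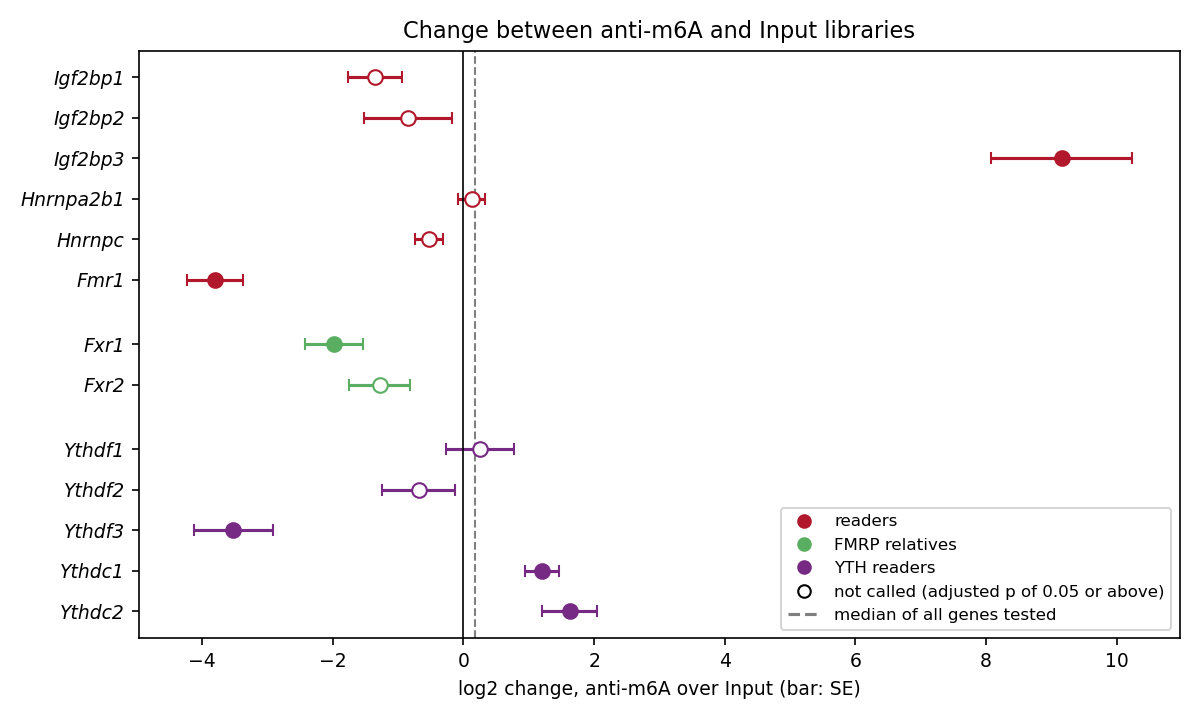
Log2 change in anti-m6A against Input for the 6 readers (red), the FMRP relatives Fxr1 and Fxr2 (green) and the 5 YTH readers (purple), with bars of 1 SE, filled points for genes that passed the test, and a dashed line at the median of all genes tested (0.184). Igf2bp3 lies at 9.16 and Fmr1 at -3.81, both filled, and the other 4 readers lie between -1.36 and 0.13 with open points.

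In IgG against Input, 0 of the 6 were higher, where 9.89% of all genes were (edgeR, with 0 also at an unadjusted p under 0.05 and with DESeq2). The 5 readers at 0 in both IgG libraries could not be higher there, so this 0 concerns Hnrnpa2b1 alone. The readers lower numbered 4, where 61.5% of all genes were lower. Igf2bp1 was at least 5.6-fold lower in IgG (adjusted p = 0.00138), Igf2bp2 at least 13.1-fold (adjusted p = 0.00352), Hnrnpc at least 223-fold (adjusted p = 0.000516) and Fmr1 at least 42-fold (adjusted p = 0.000719, edgeR). These sizes are limited by the floor and not by the IgG count, which was 0. Hnrnpa2b1 was not called, with a log2 change of 0.47 ± 0.21 (SE; adjusted p = 0.101, edgeR), and without Input replicate 1 it was called higher (0.661, adjusted p = 0.0351, the lowest of its alternatives, which reached 0.989). Igf2bp3 was at 0 in IgG and, with 0 and 4 counts, about at the floor in Input, and gives no fold (adjusted p = 0.36, edgeR).

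**Figure D5:**
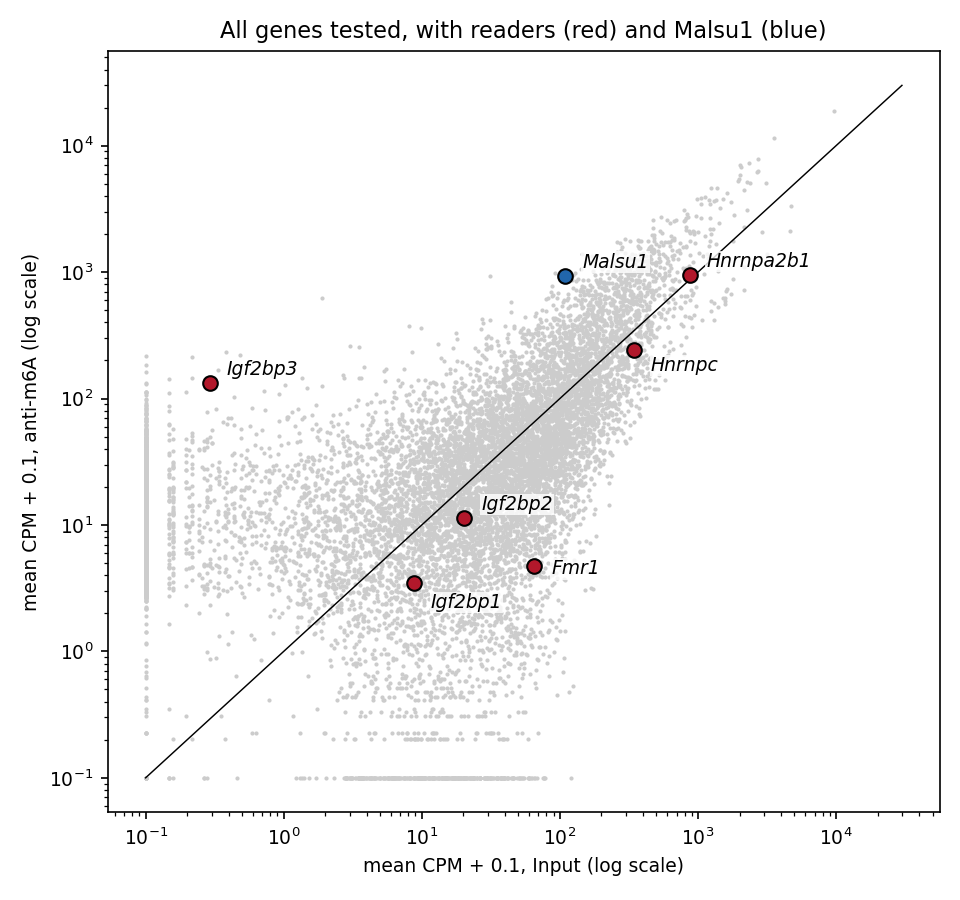
Mean level in anti-m6A (vertical) and in Input (horizontal) for all 11281 genes tested, in CPM plus 0.1 on log axes, with the readers in red, Malsu1 in blue and a line where both levels are equal. Igf2bp3 lies far above the line, at 131.8 CPM in anti-m6A and 0.194 CPM in Input, Fmr1 lies well below it, at 4.63 CPM in anti-m6A and 65.3 CPM in Input, and Hnrnpa2b1 lies close to it.

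Per kb of transcript, the order of the readers differed between anti-m6A and Input. In anti-m6A the mean level per kb was highest for Hnrnpa2b1 (549.2 ± 19.8 CPM per kb), followed by Hnrnpc (84.3 ± 4.5), Igf2bp3 (30.3 ± 0.4), Igf2bp2 (2.88 ± 1.87), Fmr1 (1.05 ± 0.11) and Igf2bp1 (0.40 ± 0.06; SD, n = 2 each). Igf2bp2 and Fmr1 lay within about the spread of Igf2bp2, although their libraries did not overlap. In Input the order was Hnrnpa2b1 (503.4 ± 80.5 CPM per kb), Hnrnpc (121.4 ± 9.8), Fmr1 (14.8 ± 2.6), Igf2bp2 (5.20 ± 1.48), Igf2bp1 (1.04 ± 0.01) and Igf2bp3 (0.04 ± 0.06). Igf2bp3 thus stood above Igf2bp2 and Fmr1 in anti-m6A and last in Input, and Fmr1 stood below Igf2bp2 in anti-m6A and above it in Input.

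The gene lists around the readers gave further values. Of 7 listed IGF2BP partners tested against Input, Dhx9, an RNA helicase, was higher (2.18 ± 0.42, adjusted p = 0.0176), while Matr3, a nuclear matrix protein (-2.52 ± 0.42, adjusted p = 0.00809), Syncrip and Pabpc1, which binds poly(A) tails (-1.22 ± 0.32, adjusted p = 0.0298, edgeR), were lower and 3 did not pass. The median log2 change of these partners was -0.457. Of 8 listed IGF2BP-bound and let-7-related genes, 5 were tested and 2 were lower than Input: Igf2, the growth factor message that named the family (-0.82 ± 0.18, adjusted p = 0.0161), and Myc (-2.60 ± 0.48, adjusted p = 0.0159, edgeR). Their median log2 change was -1.266. Lin28a and Lin28b, which block let-7 maturation, were at 0 in all 6 libraries. Among 5 YTH readers, Ythdc1 (1.21 ± 0.26, adjusted p = 0.0233) and Ythdc2 (1.63 ± 0.42, adjusted p = 0.0374) were higher than Input, Ythdf3 was lower (-3.52 ± 0.60, adjusted p = 0.0131, edgeR) and 2 did not pass, with a median of 0.251, which is smaller than the shift of all genes between scalings. Beside each of these lists, 28% of all genes tested were higher than Input and 20.5% lower, with a median log2 change of 0.184. The YTH genes and the readers described here both held genes called in each direction, which does not set them apart from all genes.

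Against IgG, 5 of the 7 partners, 3 of the 5 bound or let-7-related genes and all 5 YTH genes were higher, and the remaining 4 did not pass, where 73.1% of all genes were higher. In IgG against Input, 5 of the 7 partners, 4 of the 5 bound or let-7-related genes and all 5 YTH genes were lower. The other hnRNP genes gave 1 higher and 18 lower in IgG against Input, and the FMRP relatives and partners 1 higher and 4 lower, where 9.89% of all genes were higher and 61.5% lower.

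The genes whose profiles over the 6 libraries were most like each reader were found from the distance between centred log2(CPM + 1) profiles. Nearest to Igf2bp3 were Fam13c (distance 0.3) and Gstm6 (0.38), against a median of 7.44 over all genes. Fam13c was counted 509 and 466 times with the m6A antibody, 0 and 0 times with IgG, and 0 and 2 times in Input. Nearest to Fmr1 were Utp6 (0.209) and Nfatc3 (0.257), against a median of 5.24; Utp6 was counted 27 and 16 times with the m6A antibody, 0 and 0 times with IgG, and 695 and 635 times in Input. Nearest to Hnrnpa2b1 were Slc38a2 (0.131) and Dnaja1 (0.182), and nearest to Hnrnpc were Trip6 (0.17) and Ier2 (0.289). Nearest to Igf2bp1 were Rbbp7 (0.287) and Scrn3 (0.358), and nearest to Igf2bp2 were Tspyl5 (0.301) and Peli1 (0.362). Rbbp7 was counted 58 and 40 times with IgG, where Igf2bp1 was at 0, so at the low level of Igf2bp1 a small distance did not mean the same arrangement of counts.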

How the data were processed

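Poly(A) RNA was isolated on oligo(dT) beads, and 6% of it was kept as Input, per the labels' protocols. The rest met beads loaded with an m6A antibody or IgG (1.25 µg), and bound RNA was eluted with free m6A nucleotide. No fragmentation is stated, so counts refer to whole genes. Libraries followed Smart-seq2, which copies full-length polyadenylated RNA without strand and without molecular identifiers.

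The authors deposited raw counts per Entrez gene for the 6 libraries. Named in the submitters' processing notes are featureCounts, Picard, edgeR 3.38.1 and mm10, which is GRCm38; the annotation and the aligner are not given in the sources used. Of 27179 genes, 25275 matched a symbol in RefSeq GRCm38.p6, and the unmatched genes held 0.722% to 1.38% of a library's counts.

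The members and lists were chosen with earlier results of these data known. All 6 members are described with every library value; the other lists are given by counts, naming the genes that passed the test or, above 4, the 4 with the largest log2 change. Relatives and neighbours named besides these (Fxr2 against Input, Cyfip1, Malsu1, Gm12696, Hnrnpab) were named after their values were seen. The 2 genes nearest each member were named by the Euclidean distance between log2(CPM + 1) profiles after subtracting each gene's mean.

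Counts were fitted in R 4.3.3 with edgeR 4.0.16 (filterByExpr, TMM, glmQLFit, glmQLFTest) over all 6 libraries, with a mean for each group, which left 3 residual degrees of freedom. The filter kept 11281 genes, all 6 members among them, and Benjamini-Hochberg adjustment of p-values ran over these, with a threshold of 0.05. A fold against a group at 0 is a bound computed at 3 counts per library; for such genes the fitted log2 change is not printed. The alternatives were other scalings, filters, a fit of each pair of groups alone, DESeq2 1.42.0, a replicate block and leaving out each library. The fit was tested on simulated data. Transcript features came from GENCODE M21, using the longest protein-coding transcript of a gene. The 3 comparisons share libraries.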

Additional observations from a re-analysis of the deposited data

How the results depend on the processing

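Igf2bp3 was higher in anti-m6A than in Input in each alternative that tested it, with fitted log2 changes of 8.33 to 9.33. No size is given for the fit without Input replicate 2, where Input was at 0. The alternatives reuse the same counts, and Igf2bp3 passed the main filter through the anti-m6A libraries alone. Its direction under them is therefore no support beyond the counts. Of 234 log2 changes of the readers under alternatives, 212 kept direction and call, 11 passed the test newly, 3 no longer passed it and 8 turned direction; the cause was not tested. The turned values were all of Hnrnpa2b1, which was called in none of these: against Input -0.323 with DESeq2 size factors and with DESeq2, -0.426 with library totals, -0.442 with at least 10 counts in each library and -0.0347 without Input replicate 2 (0.317 without Input replicate 1), and in IgG against Input -0.0318 with DESeq2 size factors, -0.0315 with DESeq2 and -0.44 with at least 10 counts in each library. Readers lower than Input numbered 3 (Igf2bp1 and Hnrnpc beside Fmr1) with those size factors, with library totals and with DESeq2, which called 3635 genes lower. With library totals 1 reader was lower in anti-m6A than in IgG. With at least 10 counts in each library 1757 genes were tested, which left out each gene at 0 in an IgG library. Hnrnpa2b1 was the 1 reader tested and 0 were called in any comparison. Genes higher and lower were 593 (33.8%) and 586 (33.4%) against IgG, and 410 (23.3%) and 518 (29.5%) in anti-m6A against Input. In IgG against Input they were 480 (27.3%) and 571 (32.5%). Leaving out 1 library at a time, where a lone library is assumed to vary like the others, gave 370 to 5152 genes higher and 72 to 3961 lower than Input in anti-m6A, 0 to 3 readers lower than Input, 4 to 5 readers higher than IgG and 0 to 1 readers higher in IgG than Input. Against Input, genes higher and lower numbered 370 and 72 without anti-m6A replicate 1 and 408 and 93 without anti-m6A replicate 2; without Input replicate 1 genes lower numbered 3961, and without Input replicate 2 they numbered 3472, with 5152 higher.

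Whether same-numbered libraries were paired is not settled by their values. Deviations of same-numbered libraries correlated at 0.127 (anti-m6A and IgG), 0.102 (anti-m6A and Input) and 0.046 (IgG and Input). Low correlations do not show that the libraries were unpaired. Of the genes tested, 73.4% were at 0 in both IgG libraries, and squared differences between the 2 Input libraries averaged 119 times random sampling. With the replicate block, genes lower than Input in anti-m6A numbered 1242 and genes higher 2122, with the same number of readers called in each comparison.

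Depth limits the readers at low counts: 18 and 12 counts of Igf2bp1 in anti-m6A and 4 counts of Igf2bp3 in Input leave wide intervals, and the shallow IgG libraries set each bound.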
